A study of Drosophila melanogaster with 3 samples.

Results

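The genes described here encode proteins that build ribosomes in the nucleolus and the subunits of the RNA exosome. They were chosen by name, from a list of 36 symbols matched to the Ensembl annotation of the fly genome. All 36 were found, and all are among the 13968 protein-coding genes on the chromosome arms. By known function they were divided into 6 proteins of small nucleolar ribonucleoprotein particles (snoRNPs), 7 GTPases and helicases, 13 other assembly factors and 10 exosome subunits. Binding was measured by chromatin immunoprecipitation and sequencing (ChIP-seq) in whole Drosophila melanogaster embryos collected between 0 and 24 h, of both sexes pooled. The embryos came from a transgenic line with stable expression of CG7839 carrying GFP at its C-terminus, the chromatin was sonicated, and the tagged protein was pulled down with an antibody to GFP. There were 3 biological replicates in 1 group and no other group, so no comparison between conditions was possible. Whole embryos hold many cell types and stages, and binding in few cells cannot be told apart from weak binding in many.

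CG7839 is annotated as Noc1, a protein whose yeast counterpart takes part in assembly of the large ribosomal subunit. Ribosome assembly begins on the precursor RNA made by RNA polymerase I in the nucleolus. There, box C/D snoRNPs guide methylation and box H/ACA snoRNPs guide pseudouridylation of that RNA, while GTPases, helicases and scaffold proteins fold and order the growing subunits. The exosome, a ring of proteins with a cap and attached nucleases, trims the precursor from its 3′ side and degrades the by-products. Many genes of this kind in flies are targets of the growth regulator Myc, which binds the E-box CACGTG.

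The sequences below show what lies under the summits of these genes and what lies at their transcript starts. They were read from the RefSeq genome assembly of release 6 (dm6), 5′ to 3′ on the strand of the gene, outside any annotated exon for the summit stretches. In the summit stretches, capitals mark TATAAA on either strand in l(3)72Dn and CGATA in hoip, and the NHP2 stretch held none of the 7 motifs searched. The summit is at base 61 of the l(3)72Dn stretch, at base 12 of the NHP2 stretch and at base 59 of the hoip stretch.
l(3)72Dn (chr3L:16228779-16228899, minus strand): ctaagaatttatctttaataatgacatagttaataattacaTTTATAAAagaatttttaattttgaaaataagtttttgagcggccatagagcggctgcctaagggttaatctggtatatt
NHP2 (chr3L:14802308-14802379, minus strand): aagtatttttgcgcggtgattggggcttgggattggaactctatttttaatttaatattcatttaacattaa
hoip (chr2L:9699298-9699416, plus strand): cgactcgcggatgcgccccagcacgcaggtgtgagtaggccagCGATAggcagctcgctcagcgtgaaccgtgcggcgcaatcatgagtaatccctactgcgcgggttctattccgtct

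The next set shows the E-box at the starts of members of each class, in capitals, with 10 flanking bases on each side, again from the RefSeq release 6 assembly (dm6) on the strand of the gene. It is shown because these 6 letters were found at most of the starts, both where a summit was called and where none was. The first 4 are from snoRNP genes, the next 3 from GTPase and helicase genes, the next 4 from other assembly factors and the last pair from exosome genes.
NHP2 (chr3L:14802134-14802159, minus strand): tcacactgaaCACGTGtttcgaacaa
hoip (chr2L:9699809-9699834, plus strand): aacgctaacgCACGTGtttgaaagcg
nop5 (chr2L:6918735-6918760, minus strand): accgaaggcaCACGTGcttgcacttc
Nop56 (chr3R:22421025-22421050, minus strand): ttgaagtaagCACGTGggaaaacaac
pit (chr3R:22035747-22035772, plus strand): tggttagcaaCACGTGcgcgcaatat
Ns3 (chrX:1464164-1464189, minus strand): gcaaacattgCACGTGtttttgacaa
kz (chrX:2241977-2242002, minus strand): gcgtacttcgCACGTGtgatttaaat
l(3)72Dn (chr3L:16228693-16228718, minus strand): cttaggcacaCACGTGcatctccaga
Nopp140 (chr3L:21832782-21832807, plus strand): aagtagaaaaCACGTGtgagtgcgca
Surf6 (chr3R:19904822-19904847, minus strand): tgcttagctgCACGTGtgcgtgcgta
Mybbp1A (chrX:629793-629818, plus strand): caactttgcgCACGTGcatataaaat
Csl4 (chr2L:11123532-11123557, minus strand): cactgcattgCACGTGtgtttccatt
Ski6 (chr2L:13222260-13222285, minus strand): aatcccgccgCACGTGtgatatttag

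The data were 5 lists of peak summits. Each replicate had 30000, the list made from the pooled reads had 30000, and the authors' list thresholded on the irreproducible discovery rate (the IDR list) had 8188. The IDR list holds exactly the pooled peaks with the highest deposited signal values, so the rank of a peak by that value, with 1 the strongest, is used throughout and a pooled rank up to 8188 means that the peak is in the IDR list. A gene was counted when a summit lay within 500 bp of any of its transcript starts. For the replicates this was done with the 8188 strongest peaks and with the full list. The replicate lists share 1 control and the pooled and IDR lists come from the same reads, so the lists are not independent of each other. The files give no read depth, which is therefore unknown, and the intervals on shares (Wilson, 95%) cover counting error over genes alone.

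Of the 36 genes, 10 had a promoter summit in the IDR list: Fib, hoip, NHP2, Ns2, Non1, Nopp140, l(3)72Dn, Surf6, Mybbp1A and Rrp42. This is 27.8% (interval 15.8 to 44.0), and 22.8% of all 13968 protein-coding genes had one, a share inside that interval. In the pooled list the count was 15 genes (41.7%, interval 27.1 to 57.8) against a background of 37.6%. The list of genes as a whole was therefore near the background in both.

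Among the 8188 strongest peaks of the replicates, 11 of the 36 genes had a summit in replicate 1, 12 in replicate 2 and 17 in replicate 3. These are 30.6%, 33.3% and 47.2%, a mean of 37.0% ± 8.93 (SD, n = 3). The backgrounds were 22.8%, 25.1% and 26.4%, a mean of 24.7% ± 1.84 (SD, n = 3), so each replicate was above its own background, by the widest margin in replicate 3. With the full lists the counts were 15, 21 and 22 genes (53.7% ± 10.5, SD, n = 3), against backgrounds of 37.8%, 43.5% and 46.4% (42.6% ± 4.35, SD, n = 3). The same 36 genes are counted in every replicate, so the repeated direction is not separate evidence about the genes, and no test was made over them.

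The classes differed in their counts. Of the snoRNP genes, 3 of 6 had an IDR promoter summit (50%, interval 18.8 to 81.2), and of the GTPase and helicase genes 2 of 7 (28.6%, interval 8.22 to 64.1). Of the other assembly factors there were 4 of 13 (30.8%, interval 12.7 to 57.6), and of the exosome subunits 1 of 10 (10%, interval 1.79 to 40.4). All 4 intervals contain the background of 22.8%, so with so few genes no class stood apart from it in the IDR list.

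Over the strongest peaks of the replicates, the snoRNP share was 50%, 66.7% and 83.3% (66.7% ± 16.7, SD, n = 3). The exosome share was 20%, 0.0% and 20% (13.3% ± 11.5, SD, n = 3), where 0 of 10 genes in replicate 2 allows a share of up to 30.0%. The snoRNP share was thus above that of the exosome and above the background in each of the 3 replicates. Gar1, Nop10 and U3-55K also encode snoRNP proteins but were placed in a further list, described below. They had no IDR summit and none among the strongest of any replicate, so adding them would lower these snoRNP shares. The exosome share was below the background in each replicate. With 2 of 10 genes in replicates 1 and 3, its interval was 5.67 to 51.0, which holds the background. The same genes are counted in every replicate, so the repeated direction is not separate evidence. The GTPases and helicases (42.9% ± 14.3) and the other assembly factors (38.5% ± 7.69) lay between the snoRNP and exosome shares. In the full lists the exosome share was 40.0% ± 10, within 1 SD of the 42.6% of all genes, while the snoRNP share was 77.8% ± 9.62. The difference between the classes was not tested, since each class is a handful of genes.

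**Figure D1:**
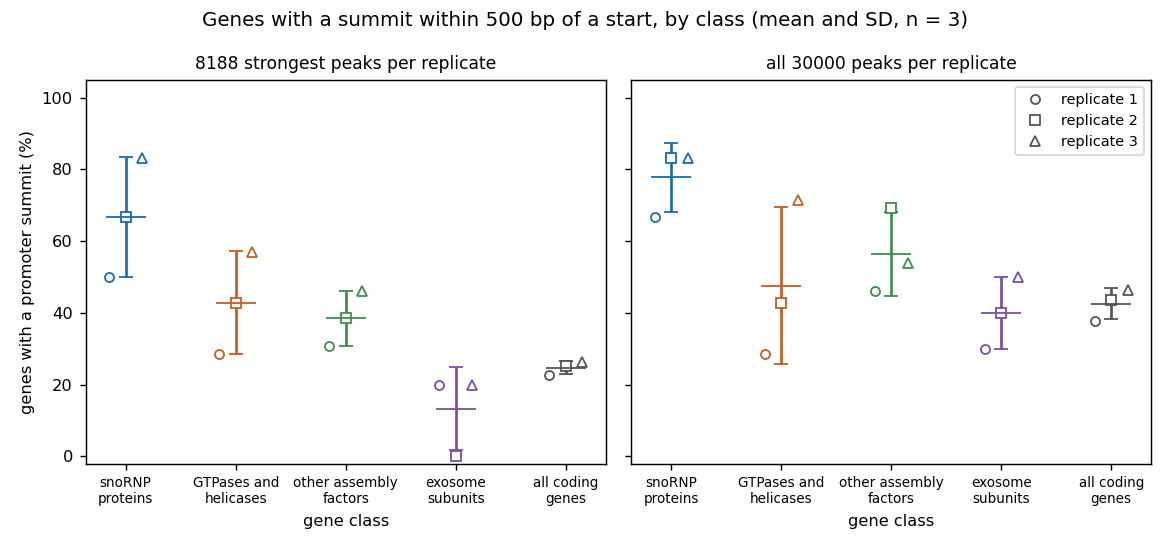
Share of genes with a summit within 500 bp of a transcript start (%, vertical axis) in each gene class and in all protein-coding genes, for the 8188 strongest peaks of each replicate (left) and all 30000 (right). Points are the 3 replicates, the horizontal line is their mean and the bar is 1 SD; on the left the snoRNP points run from 50% to 83.3% and the exosome points from 0.0% to 20%, and on the right the exosome mean of 40.0% is beside the 42.6% of all genes.

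Among the snoRNP genes, the strongest summit was that of NHP2, which encodes a core protein of the box H/ACA particles. Its IDR peak (chr3L:14802150-14802586) ranked 1166 in the pooled list and 1228, 1362 and 992 in replicates 1, 2 and 3, a mean of 1194 ± 187.3 (SD, n = 3). The summit was at -200 bp from the start in the pooled list, where negative is upstream, and at -200, -164 and -196 bp in the replicates. NHP2 was the only gene of the 10 with no other protein-coding start within 500 bp of its summit.

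Fib encodes fibrillarin, the methyltransferase of the box C/D particles. Its summit ranked 4407 in the pooled list and 4012, 5900 and 4623 in the replicates (mean 4845 ± 963.4, SD, n = 3), at -123, -154 and -147 bp. It lay 129 bp from the Fib start and 31 bp from the start of the opposite-strand gene CG3085, so Fib was not the nearer gene. The Fib gene also holds 1 snoRNA gene in its body.

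The gene hoip encodes an RNA-binding protein that the box C/D particle shares with the spliceosome. Its summit was the weakest of the 10, at rank 7256 in the pooled list and at 6511, 14264 and 5331 in the replicates. It was therefore outside the 8188 strongest of replicate 2. The summit lay 435 bp upstream of hoip and 59 bp from the start of Pka-C1, which encodes the catalytic subunit of protein kinase A. It was lost from hoip's promoter when the window was cut to 250 bp. A second, weaker pooled summit (rank 16844, outside the IDR list) lay nearer to hoip, at -154 bp.

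The other snoRNP genes were nop5, Nop56 and Nop60B. The gene nop5 encodes a core protein of the box C/D particle, and its summit ranked 9753 in the pooled list, below the IDR limit. In the replicates it ranked 16756, 1594 and 1751, at -458, -218 and -294 bp, so replicates 2 and 3 had a strong summit nearer the start and replicate 1 a weak one farther away. Nop56, the partner of nop5 in that particle, had a summit in replicate 2 alone (rank 6858, -72 bp). Nop60B, the fly dyskerin and pseudouridine synthase of the box H/ACA particles, had a summit in replicate 3 alone (rank 6339, -258 bp), and its body holds 7 snoRNA genes.

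Among the GTPases, Ns2 had the strongest summit of all 36 genes. Ns2 belongs to the nucleostemin family, whose yeast relatives act in assembly and export of the large subunit. Its summit ranked 136 in the pooled list and 148, 126 and 134 in the replicates (mean 136 ± 11.1, SD, n = 3), at -169, -165 and -162 bp. All 3 replicates thus placed it at nearly the same position as the pooled summit at -161 bp. That summit was between Ns2 (161 bp away) and the opposite-strand gene POSH (115 bp away), which encodes a scaffold protein with ubiquitin ligase activity.

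Non1 is a GTPase related to yeast Nog1, which joins early large-subunit precursors. Its summit ranked 2205 in the pooled list and 2579, 2541 and 1819 in the replicates (mean 2313 ± 428.2, SD, n = 3), at -179, -176 and -166 bp. The opposite-strand gene l(2)k10201 started 167 bp from the summit and Non1 179 bp from it, so the summit was almost midway between them. Ns2 and Non1 were the only GTPase or helicase genes with a summit in the pooled list, IDR or not.

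The other nucleostemin relatives had weaker or no summits. Ns1, the nucleostemin gene, had one in replicate 2 (rank 5556, -35 bp) and in replicate 3 (rank 8576, -105 bp), and Ns4 in replicate 3 alone (rank 4655, -84 bp). Ns3 had no promoter summit in any of the 5 lists. Of the helicase genes, pit, a DEAD-box helicase gene known as a Myc target, had a summit in replicate 3 alone (rank 6051, 73 bp downstream), and kz, a DEAH-box helicase gene, had none in any list.

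Among the other assembly factors, l(3)72Dn had the strongest summit. Its peak (chr3L:16228661-16229102) ranked 636 in the pooled list and 450, 903 and 779 in the replicates (mean 710.7 ± 234.1, SD, n = 3). The summit was at -102 bp in the pooled list and at -98, -149 and -98 bp in the replicates, nearer to l(3)72Dn than to the opposite-strand gene Tmx3 (261 bp). It was the second strongest of the 36 genes after Ns2.

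Nopp140 encodes a chaperone of snoRNPs that shuttles between nucleolus and cytoplasm. Its summit ranked 3064 in the pooled list and 2555, 4060 and 4180 in the replicates (mean 3598.3 ± 905.5, SD, n = 3), at -109, -99 and -78 bp. The neighbouring start of CG7148 was 412 bp from the summit, so Nopp140 was the nearer gene. Nopp140 was also the only member with pooled summits in its gene body outside the promoter, of which there were 2, both outside the IDR list.

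Surf6 encodes a nucleolar protein whose yeast relative acts in maturation of both subunits. Its summit ranked 3828 in the pooled list and 3988, 3336 and 7775 in the replicates (mean 5033 ± 2396.9, SD, n = 3), so it ranked lower in replicate 3 than in the others. It lay at -172, -186 and -196 bp, and RhoGAP92B, at 118 bp, was nearer to it than Surf6 at 178 bp.

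Mybbp1A encodes a nucleolar protein related to yeast Pol5, which acts in ribosomal RNA production. Its summit ranked 2813 in the pooled list, 3223 in replicate 2 and 4340 in replicate 3, and replicate 1 had no promoter summit even in its full list. It lay 279 bp from the Mybbp1A start and 11 bp from the start of RpL36, a ribosomal protein gene on the opposite strand. The bys gene, whose product bystin acts in small-subunit maturation, also faces a ribosomal protein gene. Of its 2 pooled promoter summits, the stronger (rank 12106) was 408 bp from bys and 141 bp from RpS6. The other (rank 12605) was at -75 bp, next to bys. The strongest promoter summits of replicates 2 and 3 were on the RpS6 side (-465 and -391 bp, ranks 18216 and 5920). That of replicate 1 (rank 8192) was next to bys, at -75 bp.

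The remaining assembly factors had summits in replicates alone or none. Nnp-1, a nucleolar protein gene with a yeast relative in large-subunit maturation, had a summit at rank 3004 in replicate 1 and 2702 in replicate 3, but none in replicate 2, and its nearest pooled summit was at -1385 bp. Nmd3, which encodes the export adaptor of the large subunit, had a summit in replicate 2 alone (rank 8010). The gene wcd, a relative of a yeast component of the small-subunit processome, had weak summits in all 3 replicates (ranks 17448, 13243 and 11154) and none in the pooled list. Nph and Nlp, a pair of nucleoplasmin-family histone chaperone genes that start 86 bp apart, shared a single summit in replicate 2 (rank 10081). RIOK1 and RIOK2, kinase genes of late small-subunit maturation, and Tif-IA, an initiation factor gene for RNA polymerase I, had no promoter summit in any list.

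**Figure D2:**
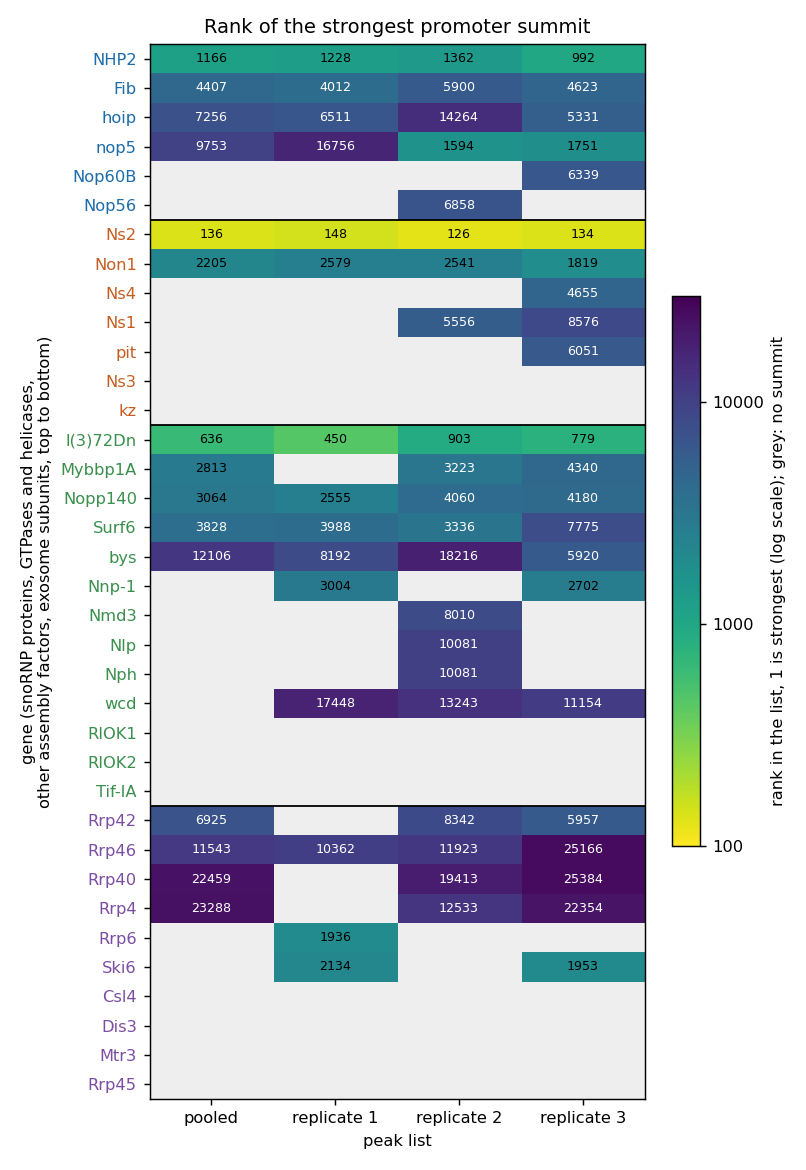
Rank by signal value (1 is strongest; colour on a log scale) of the strongest summit within 500 bp of a transcript start, for the 36 genes (vertical axis, grouped by class with black lines) in the pooled list and the 3 replicates (horizontal axis). Grey means no summit in the list; Ns2 is at ranks 126 to 148 throughout, 15 genes have a pooled summit and 9 are grey in every column.

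Of the exosome subunits, Rrp42 alone had an IDR summit. It encodes a protein of the exosome ring, and its summit ranked 6925 in the pooled list, 8342 in replicate 2 and 5957 in replicate 3, with none in replicate 1. The summit was 48 bp from Rrp42 and 73 bp from Prosbeta1, a proteasome subunit gene on the other strand. With any 1 replicate left out, by asking for a matching summit among the strongest peaks of both others, the exosome count was 0, since replicate 3 was the only one with a strong summit there.

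A further 3 exosome genes had pooled summits below the IDR limit. Rrp46, another ring subunit, ranked 11543 in the pooled list and 10362, 11923 and 25166 in the replicates. Rrp40 and Rrp4, which encode cap subunits, ranked 22459 and 23288 in the pooled list and had no summit in replicate 1. Those of Rrp40 and Rrp4 were the weakest of the 15 genes in the pooled list. A share of 4 of 10 exosome genes (40.0%) was close to the background of 37.6%. The nearest IDR summit to Rrp40 lay outside its promoter window, at -794 bp, and was strong (rank 161).

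Rrp6 and Ski6 were strong in replicates without a pooled summit. Rrp6, which encodes a nuclease that joins the nuclear exosome, ranked 1936 in replicate 1 and had no summit in the other replicates. Ski6, a ring subunit gene, ranked 2134 in replicate 1 and 1953 in replicate 3, at -5 and -44 bp, and its nearest pooled summit was 2325 bp away. Csl4, a cap subunit gene, Dis3, which encodes the exosome's main catalytic nuclease, and the ring subunit genes Rrp45 and Mtr3 had no promoter summit in any list.

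Replicate support varied from gene to gene. Of the 36 genes, 7 had a summit among the strongest of all 3 replicates (Fib, NHP2, Nopp140, Ns2, Non1, l(3)72Dn and Surf6), against 17.9% of all genes. The IDR summits of the same 7 genes were matched within 100 bp in all 3 replicates, which is 7 of 10, against 73.1% of the 3187 genes with an IDR promoter summit. Another 12 (33.3%) had a promoter summit in at least 1 replicate but none in the pooled list, against 18.5% of all genes, and 8 of these (22.2%) were in a single replicate, against 11%. How the pooled list was called and filtered is not stated, so a gene missing from it cannot be read as weak in the pooled reads. Of 12 members among the strongest of at least 2 replicates, Nnp-1 and Ski6 had no pooled promoter summit, as had 10.1% of the 3415 such genes overall. The 9 genes with no promoter summit in any list were 2764 to 74675 bp from the nearest pooled summit (median 13236 bp). In all, 27 of the 36 genes had a promoter summit in some list, against 56.2% of all protein-coding genes.

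The summits of the 10 IDR genes lay on the upstream side of the start in all 10, against 85.9% of the 3187 genes. Their median position was -169.5 bp, against -150 bp, and their median rank 2938.5, against 2860. In the upper 4094 peaks there were 7 of the 10 (70%), against 63.8% of all. In position and strength these summits were thus close to those of other genes.

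They stood in a different arrangement. A second protein-coding start lay within 500 bp of the summit for 9 of the 10 genes (90.0%), each time on the opposite strand, against 48.9% of the 3187 genes with an IDR promoter summit. The member's own start was the nearest to the summit in 4 of 10 (40.0%, NHP2, Nopp140, l(3)72Dn and Rrp42), against 74.9%. When each summit was given only to its nearest start, the count fell to 4 of 36 genes (11.1%), below the 17.6% of all genes. The members' share was thus above the background when both genes of a pair were counted, and below it by nearest start. The interval of the first share held its background, and no interval was made for the second.

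**Figure D3:**
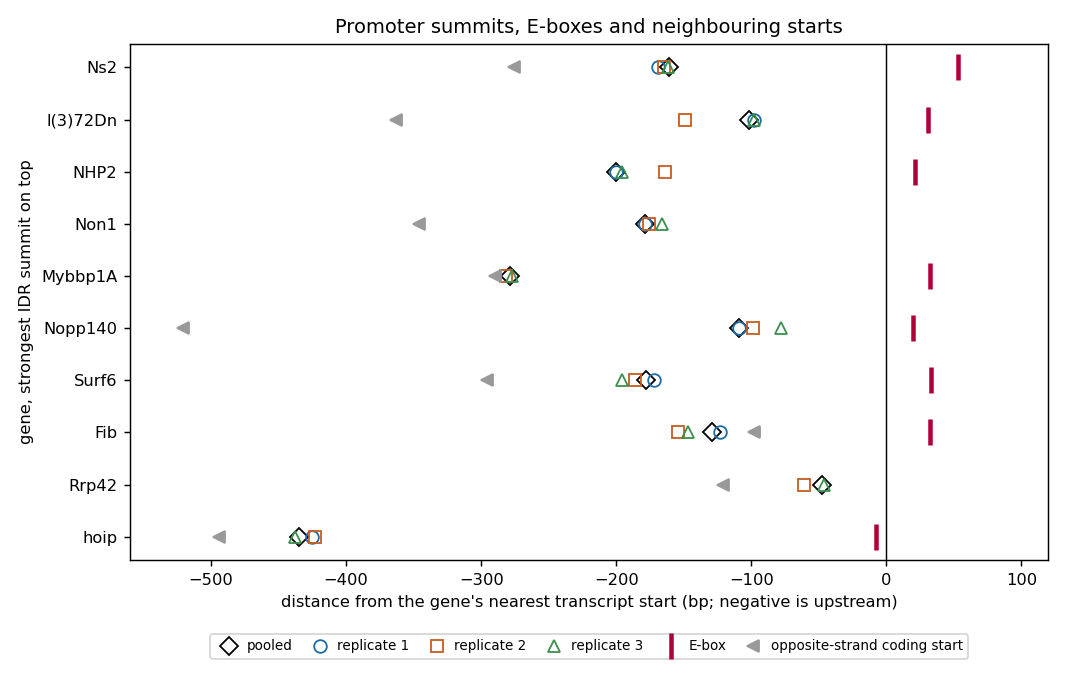
Distance in bp from the nearest transcript start of the gene (horizontal axis, negative is upstream) for the 10 genes with an IDR promoter summit, with the strongest on top. Diamonds are pooled summits, circles, squares and triangles those of replicates 1, 2 and 3, red bars E-boxes and grey arrowheads the opposite-strand coding start within 1000 bp; every summit is upstream of the start, and every E-box shown is from -8 to 53 bp.

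The arrangement is a property of these genes with or without a summit. In the annotation alone, 30 of the 36 genes (83.3%) had a protein-coding neighbour that started within 1000 bp upstream on the opposite strand (head to head), against 36.2% of all protein-coding genes. Among genes with such a neighbour, 9 of 30 members had an IDR summit (30.0%, interval 16.7 to 47.9), against 35.4% of 5052 genes. Among genes without one, 1 of 6 members did (16.7%, interval 3.01 to 56.4), against 15.7% of 8916. Within each arrangement the share of all genes thus lay inside the members' interval. Over all genes, those with a head-to-head neighbour had a summit more often than those without. The counting rule favours this, since a summit counts for every gene with a start within 500 bp, its neighbour's included. The comparison was not made by nearest start.

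Some of the head-to-head neighbours are given here as examples, picked by name. RpL36 faces Mybbp1A, RpS6 faces bys, and the mitochondrial ribosomal protein genes mRpS17 and mRpS11 face Nop60B and Ns1. GlnRS, which encodes glutaminyl-tRNA synthetase, starts 123 bp from RIOK2. The exosome nuclease gene Dis3 starts 117 bp from Rrp5, itself a ribosome assembly gene.

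The E-box CACGTG, which reads the same on both strands, was found within 100 bp of a transcript start in 25 of the 36 genes (69.4%), against 3.68% of all protein-coding genes. All 6 snoRNP genes had it, as had 5 of 7 GTPase and helicase genes (71.4%) and 12 of 13 other assembly factors (92.3%). Of the exosome subunits only Csl4 and Ski6 had it (20%). The genes without it were Ns4, Non1, Tif-IA and the 8 other exosome genes. The 27 sites lay between -23 and 53 bp from the start, with a median of 32 bp downstream, and 23 of them (85.2%) were on the downstream side, against 61.9% of the sites in all genes.

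None of the 10 windows of 100 bp on either side of the members' IDR summits held the E-box (a count of 0 of 10 allows a share of up to 30.0%). It was also rare in such windows at all genes (2.03% of 2412), so its absence is not particular to the members. In the 8 members with an E-box at a start and an IDR summit, these were 129 to 465 bp apart (median 213.5 bp). That distance was not measured over all genes. Of the 25 members with an E-box, 8 had an IDR summit (32.0%), against 35.0% of the 514 genes with one in the whole genome. Of the 11 members without, 2 had one (18.2%), against 22.4% of the other genes.

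**Figure D4:**
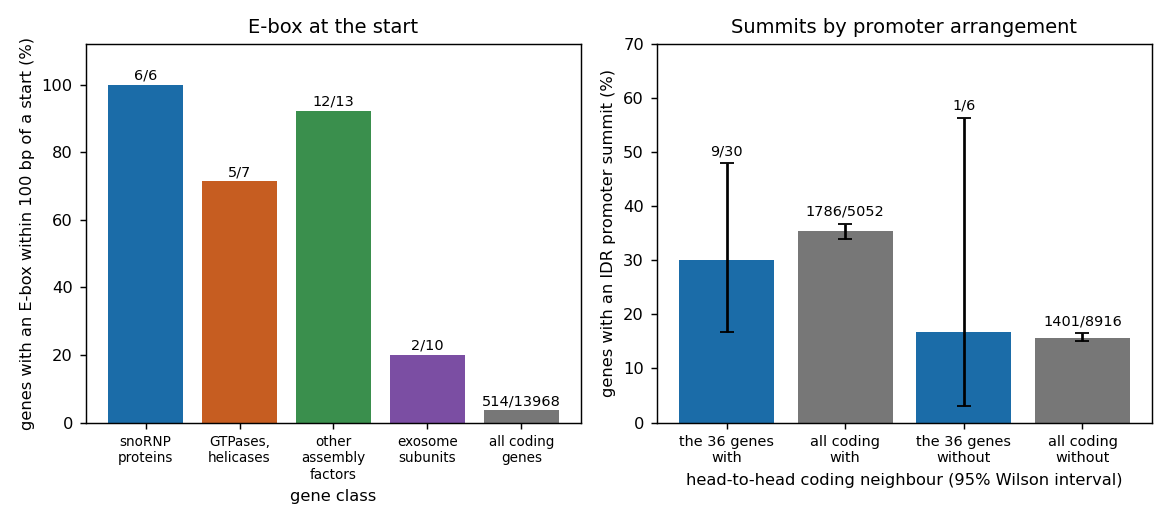
Left, share of genes (%, vertical axis) with CACGTG within 100 bp of a transcript start, by class and for all protein-coding genes, from 100% of snoRNP genes to 20% of exosome subunits and 3.68% of all genes. Right, share of genes with an IDR promoter summit (%), with and without a head-to-head coding neighbour, with 95% Wilson intervals; 30.0% of the members with a neighbour and 35.4% of all genes with one had a summit.

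Of the other motifs, TATCGATA, the DNA replication-related element bound by the factor DREF, was in 2 of the 10 summit windows (Mybbp1A and Rrp42), against 5.64% of the 2412 windows. Its inner letters CGATA, the core of the insulator protein BEAF-32's site, were in 3 (those and hoip), against 33.3%, and every match to the longer motif counts here too. TATAAA was in 2 windows (Non1 and l(3)72Dn), against 41.2%, and CATCNCTA in 1 (l(3)72Dn), against 5.51%. GAGAGAG and GGTCACAC were in none of the 10, against 3.11% and 3.23%. All were searched on both strands. The GC content of the windows was a median of 35.6%, against 33.3% overall. With 10 windows, each of these counts is a description, and the absence of a match says nothing about any factor.

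Another 21 genes of ribosome assembly and RNA decay were listed by name. Of these, 5 had an IDR promoter summit (23.8%, interval 10.6 to 45.1) against the background of 22.8%, and 7 a pooled one. Over the strongest peaks of the replicates their share was 14.3%, 23.8% and 28.6% (22.2% ± 7.27, SD, n = 3), beside 24.7% ± 1.84 in all genes. It was below the background in replicates 1 and 2 and above it in replicate 3. The strongest was at eIF6, which encodes a factor that keeps the subunits apart, with rank 54 in the pooled list and 39, 78 and 55 in the replicates. The eIF6 summit was stronger than that of Ns2 in every list. It lay 110 bp from eIF6 and 81 bp from asRNA:CR45928, a non-coding RNA gene on the opposite strand, so eIF6 was not the nearest gene. Next was tst, the gene of a Ski2-like helicase that assists the cytoplasmic exosome, at rank 558 and at 507, 721 and 499 in the replicates. CG13097 ranked 2011 in the pooled list and 1969, 2469 and 1838 in the replicates. Trf4-1, a poly(A) polymerase gene whose yeast relatives mark RNA for the exosome, ranked 5994 in the pooled list, 5258 in replicate 2 and 8729 in replicate 3. The strongest promoter summit of replicate 1 (rank 10781) lay at another start of the gene.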

How the data were processed

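The authors deposited narrowPeak lists on dm6: 1 list for each of 3 replicates, made from its alignments and 1 control common to all, a list from the pooled alignments and the IDR list, per the text files deposited beside them. No source used here names the aligner, peak caller or thresholds, and the control reads were not analysed here. The deposited signal value has no stated scale and served only to rank peaks within a list. Summits were the interval start plus the authors' deposited offset, and the 2 to 7 offsets per list that lay past the interval's end were put on its last base. No summit was the same in position and signal value in any pair of replicates.

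Transcript starts came from Ensembl release 115, sequence and synonyms from RefSeq release 6. The strongest summit within 500 bp of any start stood for a gene, and replicate summits within 100 bp of an IDR summit counted as matched. Motifs were searched on both strands in the 100 bp on either side of a summit or start. The analysis used Python 3.11.15, NumPy 2.4.6, SciPy 1.17.1 and matplotlib 3.10.9, and the counting was tested on planted summits. The genes, classes and lists were chosen with earlier results of these data known, so no test was made over them. The E-box and head-to-head descriptions were added after the motif counts were seen. Genes with an IDR summit were given values in every list, and those without one mainly by the lists that held them. The 3 nearest the IDR limit and the 4 other pathway genes of best pooled rank were named, with sequence for up to 6 genes. Of the 6 summit stretches read, 3 are printed. The neighbours named by function, and Rrp6, Ski6 and Nnp-1 as strong in replicates, were picked after their values were seen. Alternatives were other windows, lists, start assignments, match distances and leaving out each replicate.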

Additional observations from a re-analysis of the deposited data

How the results depend on the processing

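The count of 10 genes with an IDR promoter summit was 8 with a 250 bp window (22.2%, against 17.4% of all genes) and 12 with 1000 bp (33.3% against 26.9%). It was 7 in the upper 4094 peaks (19.4% against 14.6%) and 15 in the pooled list (41.7% against 37.6%). With the gene record's 5′ end it was 10 (27.8% against 20.3%). Without replicate 1, 2 or 3 it was 8, 8 and 7 (22.2%, 22.2% and 19.4%, against 18.6%, 18.2% and 17.8%). Each share was above that of all genes, but the settings count largely the same genes, so the repeated direction is not separate evidence. Given to the nearest start only, the count was 4 (11.1% against 17.6%), because the other 6 summits lie nearer to another gene's start. The snoRNP count of 3 became 1 in the upper 4094 peaks and 1 by nearest start (2 to 3 without a replicate), the GTPase and helicase count of 2 became 0 by nearest start (2 without any replicate), and the count of 4 other assembly factors became 2 by nearest start (3 to 4 without a replicate). The exosome count of 1 became 2 with 1000 bp, 0 in the upper 4094 peaks, 4 in the pooled list and 0 without any 1 replicate. The background was 26.9% with 1000 bp, 14.6% in the upper 4094 peaks, 37.6% in the pooled list and 17.6% by nearest start. Without a replicate it was 17.8% to 18.6%. The snoRNP share of 16.7% was thus above the background in the upper 4094 peaks and below it by nearest start. The exosome share was below the background at each setting listed for it except the pooled list, though on counts of only 0 to 2 of 10 genes. The mean replicate share of 37.0% was 53.7% with the full lists, which hold more peaks, and 31.9% to 40.3% without a replicate. The 7 genes matched in all 3 replicates were the same 7 with 50 and 250 bp. The E-box count of 25 was 24 within 50 bp (background 2.48%) and 26 within 250 bp (8.61%), and the head-to-head count of 30 was 27 within 500 bp (75.0% against 27.3%), of which 8 had an IDR summit (29.6% against 37.4%). These E-box and neighbour windows were chosen after seeing the data. No paired analysis was possible because there is 1 group. Depth behind a peak is unknown, so a gene without a summit may have had binding below each list's limit.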
